A study of Homo sapiens with 4 samples.

Results

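The 55 genes described here encode the kinases, phosphatases and cyclin that start mitosis, the kinetochore and its checkpoint, the enzymes that release sister chromatids, and the proteins of the spindle and of cytokinesis. They were taken by name from the gene count tables, with condensins and all kinesins but CENPE left out. All 55 were found among 29655 distinct names. The cells were UMSCC74B, an established line from a human head and neck squamous cell carcinoma (HNSCC), recorded as wild type. The comparison was between a control shRNA and an shRNA against PRMT5 (PRMT5 KD), with 2 libraries each, a short hairpin RNA being a construct that lowers its target transcript. Total RNA was taken after 72 h. The shRNA was delivered by plasmid transfection per the sample labels, whereas the methods describe lentiviral particles. Nothing in the labels says whether the 2 libraries of a group came from separate cultures, so the tests measure the spread between these libraries only.

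Libraries held 52185289 to 65964558 estimated counts, of which ribosomal RNA genes took 15.3% and 14.2% in the controls and 26.2% and 18% in the libraries labelled PRMT5 KD. PRMT5, the arginine methyltransferase that the shRNA targets, was checked first. CPM are counts scaled by the total over the genes tested and by TMM factors. The PRMT5 transcript stood at 94.4 and 84.4 CPM in control and at 132 and 150 in the libraries labelled PRMT5 KD. This is a log2 fold change of 0.66 (SE 0.12, FDR 0.00544) in the direction opposite to a knockdown, and without control replicate 2 it was 0.58 and no longer called (FDR 0.0674). The labels state that knockdown was assessed by quantitative PCR and immunoblot. According to the paper, an immunoblot bore out the silencing by the PRMT5 shRNA. Those measurements were not used here. Whether the library labels could be exchanged was not tested. An exchange would turn every direction given here, so the groups are named by their labels throughout. Markers of squamous epithelium were low or near 0 in all libraries. KRT5, KRT6A and KRT14 did not pass 0.394 CPM of the library total, and EPCAM and CDH1 stayed under 1. TP63 stood at 4.18 and 5.0 in control and at 1.29 and 2.60 in the libraries labelled PRMT5 KD, ITGB4 at 3.62 and 4.97 against 0.560 and 0.488, and KRT17 at 0.0958 and 0.0910 against 0.825 and 1.28. The 8 markers together gave 8.78 and 10.6 in control and 3.50 and 5.78 in the libraries labelled PRMT5 KD. The 6 fibroblast markers were all detected and summed to 527 and 599 in control and to 93.5 and 127 in the libraries labelled PRMT5 KD. The leukocyte list gave 26.4 and 30.5 against 0.887 and 1.75, nearly all of it CD14, with CD3E at 0, and the endothelial list 8.30 and 11.2 against 1.56 and 0.994. The marker levels differed between the groups and went against the labelled cell type, and their part in the results below was not tested.

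Mitosis begins when cyclin-dependent kinase 1 is activated by its cyclins and by CDC25 phosphatases, and Polo-like and Aurora kinases then organise centrosomes, chromosomes and spindle. The kinetochore is a layered protein structure built on the centromere, in which an inner layer binds centromeric chromatin and an outer layer binds microtubules. Kinetochores that lack microtubules keep the spindle assembly checkpoint active, and this checkpoint holds back the anaphase-promoting complex (APC/C) until every chromosome is attached. Transcripts of many of these genes are made mainly in G2 and mitosis, and their promoters often carry a cell cycle genes homology region (CHR, core TTTGAA) and CCAAT boxes, which are known to be read by the DREAM and MuvB complexes together with B-MYB and FOXM1, and by NF-Y. Because transcripts were measured in bulk, a larger share of cells in these phases and more transcript per cell cannot be told apart.

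Promoter letters are shown first, as a description of the genes. Since promoters of genes of G2 and mitosis often carry such letters, the choice by function is not independent of them. Whether they bear on the changes was not tested. RefSeq promoters (GRCh38.p14, 250 bases before to 50 after each start) were found for 44 of the 55 genes, with 54 starts; AURKA, BUB3, CENPH, CENPM, FOXM1, KNTC1, PBK, TPX2, TTK, UBE2C and BIRC5 had no entry. The 100 bases before the start are printed 5′ to 3′ on the gene's strand for 6 genes with the CHR core near the start, one or more from each of the entry, passenger, checkpoint, anaphase and spindle groups, and for NEK2 and MYBL2, which lack it. Capitals mark the CHR core, the letters of the CCAAT box and an E2F core, each on either strand. The E2F cores searched were TTCCCGC as the first form, then TTGGCGC as the next form, then TTGCCGC as another form and finally TTCGCGC.
PLK1 (chr16:23678789-23678888, plus strand): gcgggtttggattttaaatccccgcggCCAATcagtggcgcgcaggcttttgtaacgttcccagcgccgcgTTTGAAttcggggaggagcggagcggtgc
CCNB2 (chr15:59105046-59105145, plus strand): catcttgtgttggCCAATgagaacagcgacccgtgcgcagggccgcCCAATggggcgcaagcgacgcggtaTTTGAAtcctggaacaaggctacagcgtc
PRC1 (chr15:90994536-90994635, minus strand): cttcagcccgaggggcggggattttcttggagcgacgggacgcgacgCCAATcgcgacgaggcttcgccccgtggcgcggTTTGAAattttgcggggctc
ESPL1 (chr12:53268199-53268298, plus strand): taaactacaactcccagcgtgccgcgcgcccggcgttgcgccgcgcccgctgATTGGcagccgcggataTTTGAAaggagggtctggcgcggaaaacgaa
ZWINT (chr10:56361260-56361359, minus strand): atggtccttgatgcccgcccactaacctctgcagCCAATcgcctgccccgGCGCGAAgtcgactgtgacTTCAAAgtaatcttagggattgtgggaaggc
CDCA8 (chr1:37692416-37692515, plus strand): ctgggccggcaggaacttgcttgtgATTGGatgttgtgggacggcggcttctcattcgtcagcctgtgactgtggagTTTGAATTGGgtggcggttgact
NEK2 (chr1:211675622-211675721, minus strand): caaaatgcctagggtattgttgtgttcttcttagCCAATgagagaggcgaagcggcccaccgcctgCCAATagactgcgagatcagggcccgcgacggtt
MYBL2 (chr20:43667014-43667113, plus strand): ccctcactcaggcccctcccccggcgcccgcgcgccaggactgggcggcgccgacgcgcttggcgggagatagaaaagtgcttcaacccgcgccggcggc

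In the first 6 stretches the CHR core began between 31 and 20 bases before the start, with a CCAAT box upstream of it. The largest share of CHR matches of mitotic genes, 18.5% of starts, lay 0 to 24 bases after the start, which these stretches do not cover. In PLK1 these lay at 29 and 73 bases before the start, and in CCNB2 a pair of CCAAT boxes at 87 and 54 bases preceded the core at 29. ZWINT also held an E2F core between its CCAAT box and its CHR core. In CDCA8 a second CCAAT box, in reverse orientation, overlapped the CHR core by 1 base. NEK2, one of the 3 genes whose transcript was not called, showed 2 CCAAT boxes and no CHR core. MYBL2, the gene with the largest rise, showed none of the exact letters searched in its stretch. Other forms of these sites were not searched.

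Within 60 bases of a start, TTTGAA was found in 25 of the 44 genes (56.8%), against 4.79% of the 9756 tested genes with a promoter entry. In the whole window the figures were 63.6% and 13.9%, and 18.2% of all 27305 genes in the table held it. None of 38 genes for replication licensing and fork proteins, a list used throughout as a comparison, held it anywhere in the window. CCAAT was found in the window of 68.2% of the mitotic genes, 44% of tested genes and 63.2% of the replication genes. E2F cores were in 31.8% of the mitotic genes, 25.4% of tested genes and 73.7% of the replication genes, and the forkhead letters TGTTTAC in 2.27%, 3.54% and 2.63%. These are matches of letters and were not tested as sites.

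**Figure D1:**
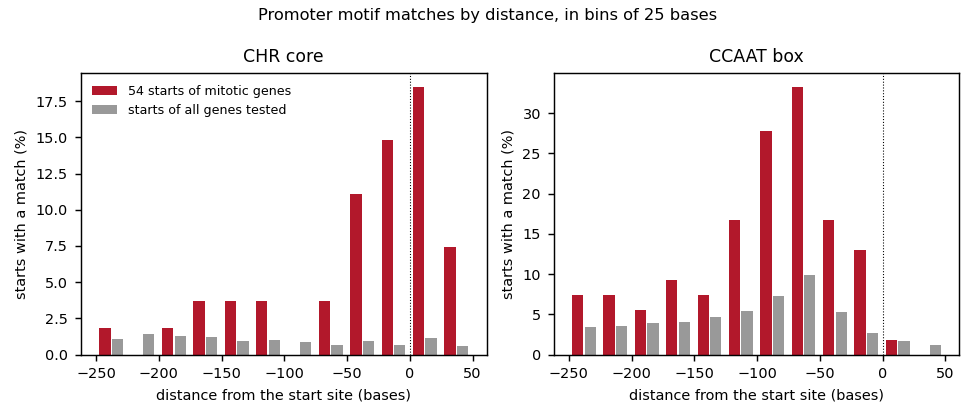
Share of start sites (y axis, percent) with a match to the CHR core (left) or the CCAAT box (right) in each bin of 25 bases, by distance from the start site (x axis, bases); red bars are the 54 starts of mitotic genes and grey bars the starts of all tested genes. CHR matches of mitotic genes peak at 18.5% in the bin from 0 to 24 bases after the start, and CCAAT matches at 33.3% between 75 and 51 bases before it.

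All 55 genes passed the filter on low values and were among the 11881 protein-coding genes tested. A gene was called when edgeR's quasi-likelihood test gave a Benjamini-Hochberg adjusted p (FDR) under 0.05 and the log2 fold change was 0.5 or more in either direction. Of the 55, 52 were called higher in the libraries labelled PRMT5 KD, against 21.2% of all genes tested, and none was called lower by edgeR or DESeq2, against 24.4% of all genes. All 55 estimates lay above 0. With a threshold of 1 on the log2 scale, 47 were higher, against 8.68% of all genes. In 54 of the 55 both libraries labelled PRMT5 KD lay above both controls, which was true of 39.9% of all genes. The median log2 fold change was 1.52, a 2.87-fold difference, with a range from 0.12 to 3.10, while the median of all genes tested was -0.01. Summed over the 55 genes, CPM were 3044 and 2115 in control and 6161 and 6551 in the libraries labelled PRMT5 KD. Across all genes, 2521 were higher and 2897 lower. Scaling by the total counts of the tested genes alone, without TMM factors, put the median of all genes at 0.17. It gave 3505 higher and 2198 lower, with 54 of the mitotic genes higher and their median at 1.70.

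**Figure D2:**
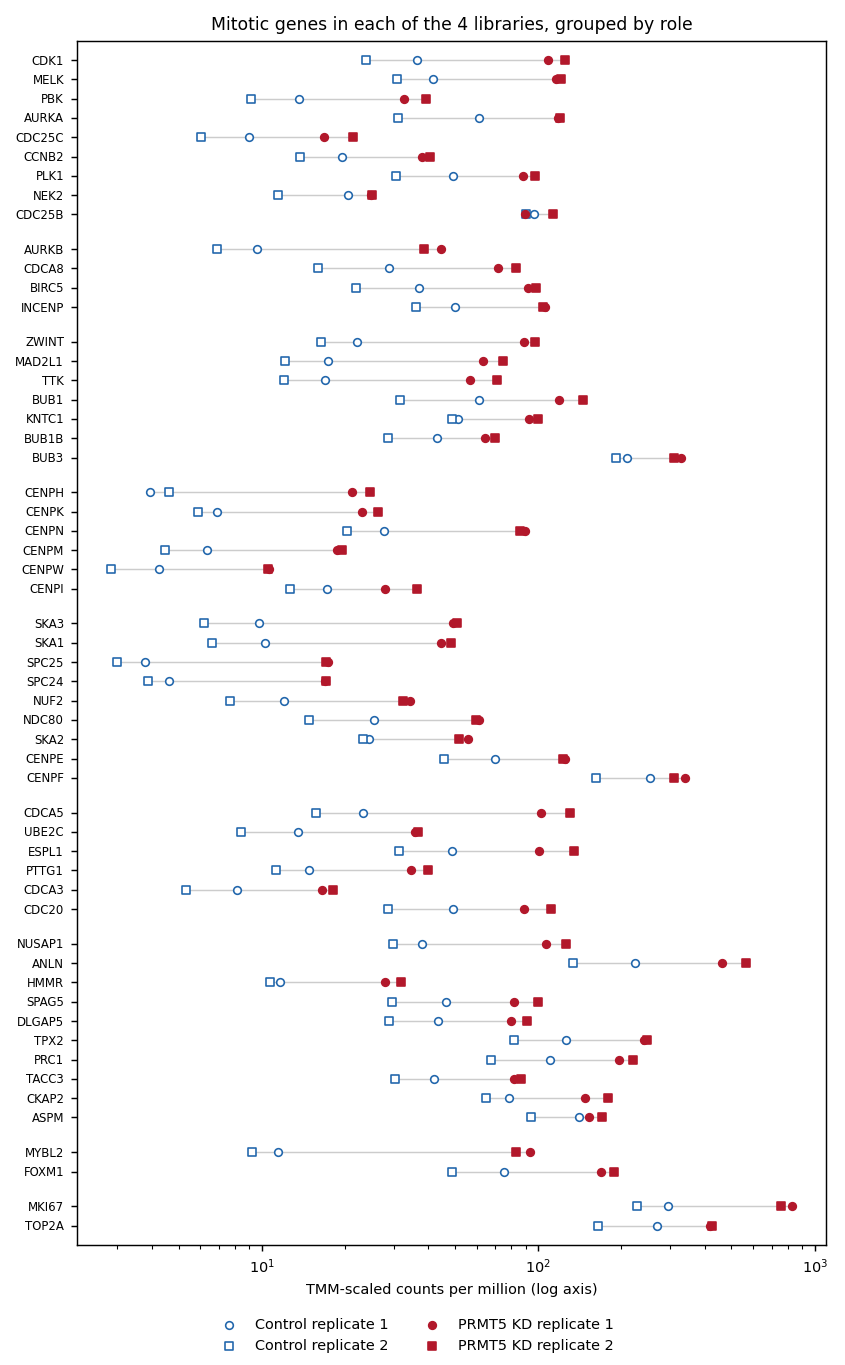
CPM of each gene (x axis, log scale) in the 4 libraries, with genes on the y axis grouped by role and ordered by fold change within a role; open symbols are control, filled symbols are libraries labelled PRMT5 KD, circles are replicate 1 and squares replicate 2. Open and filled symbols are separate in 54 genes, and only those of CDC25B overlap; control replicate 2 lies left of control replicate 1 in 54 genes.

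Of the 9 genes for entry kinases, a cyclin and the CDC25 phosphatases, 7 passed the test as higher, and the median of the group was 1.35 on the log2 scale. CDK1, the kinase whose activity defines mitosis, rose from 36.5 and 23.9 CPM in control to 109 and 124 (log2 fold change 1.95, SE 0.22, FDR 0.00125). CCNB2, one of its B-type cyclins, rose from 19.6 and 13.8 to 38.1 and 40.5 CPM (1.24, FDR 0.00242). PLK1, the Polo-like kinase needed for centrosome maturation and mitotic entry, rose from 49 and 30.6 to 88.1 and 97.7 CPM (1.23, FDR 0.00762), a call lost without PRMT5 KD replicate 2 (FDR 0.0593). AURKA, the Aurora kinase of centrosomes and spindle poles, had 61.3 and 31 CPM in control and 118 and 120 in the libraries labelled PRMT5 KD (1.36, SE 0.33, FDR 0.0214). Its controls differed from each other by about as much as control replicate 1 differed from the other group, and the call was lost without either library labelled PRMT5 KD (FDR 0.245 and 0.262). MELK (1.71) and PBK (1.66), kinases that are abundant in dividing cells, kept their calls in every fit that left out 1 library.

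The CDC25 phosphatases, which remove inhibitory phosphates from CDK1, gave unequal values. CDC25C rose from 9.0 and 6.02 CPM to 16.7 and 21.4 (log2 fold change 1.35, FDR 0.00457). CDC25B stood at 96.3 and 90.7 CPM in control and at 89.3 and 113 in the libraries labelled PRMT5 KD, so its groups overlapped (0.12, SE 0.14, FDR 0.518). Without PRMT5 KD replicate 2 its difference was -0.059. NEK2, a kinase of centrosome separation, had 20.4 and 11.4 CPM in control and 24.9 and 25.1 in the libraries labelled PRMT5 KD, and was not called (0.66, SE 0.28, FDR 0.0938); it was called without control replicate 1 (1.13, FDR 0.0164) and by DESeq2 (0.66, FDR 0.0398), and without control replicate 2 it was 0.29 (FDR 0.262).

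All 4 genes of the chromosomal passenger complex, which corrects faulty attachments and later steers cytokinesis, were higher, at a median of 1.74 on the log2 scale. AURKB, its kinase, rose from 9.64 and 6.87 to 44.7 and 38.5 CPM, a 5.05-fold difference (log2 2.34, SE 0.20, FDR 0.000439). INCENP, its scaffold, rose from 50.2 and 36 to 106 and 104 CPM (1.29, FDR 0.00162). Kinase and scaffold thus rose by different factors, and per length (RPKM) the ratio of AURKB to INCENP was 0.382 and 0.379 in control and 0.839 and 0.734 in the libraries labelled PRMT5 KD. CDCA8, which encodes borealin, rose by 1.79 (FDR 0.00628) and BIRC5, which encodes survivin, by 1.69 (FDR 0.00373). The call for CDCA8 was lost without either library labelled PRMT5 KD (FDR 0.0734 and 0.0951), and that for BIRC5 without replicate 2 (FDR 0.0542).

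The 7 spindle checkpoint genes were all called higher, with a median of 1.51 and estimates from 0.68 to 2.28. ZWINT, a kinetochore scaffold that helps to recruit the checkpoint proteins, rose from 22 and 16.4 to 89.2 and 97.1 CPM (log2 fold change 2.28, SE 0.17, FDR 0.000322). MAD2L1, which encodes the MAD2 protein that binds CDC20, rose from 17.3 and 12.1 to 62.9 and 74.7 CPM (2.23, FDR 0.000535). TTK, the MPS1 kinase that starts checkpoint signalling, rose from 16.9 and 12 to 56.5 and 70.8 CPM (2.14, FDR 0.000673). These 3 rose by more than 4-fold, and their calls did not depend on any one library.

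BUB1 and BUB1B, which encode the BUB1 kinase and its relative BUBR1, rose by 1.51 (FDR 0.0161) and 0.91 (FDR 0.0122). BUB1 had 61.1 and 31.7 CPM in control and 119 and 146 in the libraries labelled PRMT5 KD, and lost its call without either of the latter (FDR 0.182 and 0.234); BUB1B lost it without replicate 2 (FDR 0.0558). BUB3, their common partner, had 209 and 191 CPM in control and rose least of the 7, to 330 and 310 (0.68, SE 0.12, FDR 0.00441), with the call lost without control replicate 2 (FDR 0.0628). KNTC1, the ROD subunit of the complex that brings dynein and MAD proteins to kinetochores, rose from 51.2 and 48.8 to 92.9 and 99.9 CPM (0.95, SE 0.11, FDR 0.000962). Per length, the ratio of MAD2L1 to BUB3 was 0.123 and 0.0941 in control and 0.283 and 0.357 in the libraries labelled PRMT5 KD, whereas that of BUB1B to BUB3 was 0.378 and 0.275 against 0.357 and 0.414, with overlapping groups.

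The 6 inner kinetochore genes, which encode subunits of the centromere-bound network that links CENP-A chromatin to the outer layer, were all called higher, with a median of 1.85. CENPH rose from 3.95 and 4.60 to 21.2 and 24.7 CPM, a 5.37-fold difference (log2 2.42, SE 0.17, FDR 0.000294). It was the only one of the 55 with the higher value in control replicate 2. CENPK rose from 6.90 and 5.86 to 23 and 26.3 CPM (1.95), CENPN, which reads CENP-A directly, from 27.6 and 20.3 to 89.5 and 85.8 (1.87), and CENPM from 6.35 and 4.46 to 18.8 and 19.6 (1.83). CENPI rose least, from 17.2 and 12.7 to 27.8 and 36.5 CPM (1.11, FDR 0.00569; without control replicate 2, 0.90 and FDR 0.0542). CENPW, a histone-fold subunit, held the lowest count of the 55, 142 in control replicate 2, and rose by 1.58 (FDR 0.00219). When exon length and GC content were corrected for, its log2 fold change was 0.87 and it was still called.

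The 9 outer kinetochore genes were all called higher, with a median of 1.76. The NDC80 complex, the main microtubule-binding unit, has 4 subunits. SPC25 rose from 3.77 and 3.0 to 17.3 and 17 CPM (log2 fold change 2.35, SE 0.18, FDR 0.000335), and SPC24 from 4.63 and 3.86 to 17 and 17.1 (2.01, FDR 0.000418). NUF2 rose from 12 and 7.67 to 34.4 and 32.3 CPM (1.76, FDR 0.00148), and NDC80 from 25.5 and 14.8 to 61.2 and 59.6 (1.59, FDR 0.00485; without either library labelled PRMT5 KD, FDR 0.0562 and 0.0633). The subunits that face the centromere, SPC24 and SPC25, had the lower levels per length in control (1.5 and 1.85 RPKM on average, against 2.93 for NUF2 and 5.67 for NDC80) and the larger estimates. The ratio of SPC25 to NUF2 per length went from 0.577 and 0.720 to 0.925 and 0.970.

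The SKA complex helps kinetochores follow shrinking microtubules, and its partners rose by different factors. SKA3 rose from 9.76 and 6.16 to 49.2 and 50.8 CPM (log2 fold change 2.66, SE 0.23, FDR 0.000518), and SKA1 from 10.3 and 6.60 to 44.5 and 48.2 (2.46, FDR 0.000569). SKA2 rose from 24.5 and 23.2 to 55.8 and 51.8 CPM (1.17, SE 0.12, FDR 0.00061). Per length, SKA3 stood at 0.430 and 0.286 of SKA2 in control and at 0.951 and 1.06 in the libraries labelled PRMT5 KD. CENPE, a motor that moves chromosomes to the spindle equator, rose by 1.10 (FDR 0.00707). CENPF, a large protein of the outermost layer, had 254 and 162 CPM in control and 341 and 310 in the libraries labelled PRMT5 KD; its call was marginal (0.65, SE 0.22, FDR 0.0499) and was lost without control replicate 2 (0.36, FDR 0.194) and without either library labelled PRMT5 KD (FDR 0.175 and 0.124).

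The 6 genes grouped under anaphase and cohesin release, which include a cohesin-locking protein and a mitotic entry adaptor, were all higher, with a median of 1.54. CDCA5, which encodes sororin, the protein that locks cohesin on sister chromatids, rose from 23.2 and 15.8 to 103 and 131 CPM (log2 fold change 2.58, SE 0.23, FDR 0.000687). ESPL1, the separase protease that cuts cohesin, rose from 48.7 and 31.5 to 101 and 135 CPM (1.56, FDR 0.00508), and its inhibitor PTTG1, securin, from 14.8 and 11.3 to 34.7 and 40 (1.52, FDR 0.000949). The RPKM ratio of inhibitor to protease was 1.37 and 1.61 in control and 1.55 and 1.34 in the libraries labelled PRMT5 KD, with overlapping groups. PTTG1 has near-identical copies, but PTTG2 and PTTG3P held at most 5 and 12 counts in any library beside at least 564 for PTTG1. CDC20, the APC/C activator that the checkpoint restrains, rose by 1.37 (FDR 0.013; without either library labelled PRMT5 KD, FDR 0.0775 and 0.129), UBE2C, the ubiquitin-conjugating enzyme of the APC/C, by 1.73 (FDR 0.0018), and CDCA3, an adaptor linked to mitotic entry, by 1.37 (FDR 0.00328).

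Of the 10 genes of spindle assembly and cytokinesis, 9 were called higher, with a median of 1.24, the lowest of the groups. NUSAP1, a microtubule-bundling protein, rose from 38 and 29.9 to 107 and 126 CPM (log2 fold change 1.78, SE 0.16, FDR 0.0005). ANLN, anillin, which organises the contractile ring, rose from 223 and 133 to 461 and 563 CPM (1.52, FDR 0.00592; without PRMT5 KD replicate 2, FDR 0.063). HMMR, a spindle-associated protein, rose from 11.7 and 10.7 to 27.9 and 32 CPM (1.42, FDR 0.000639). The other genes called in the group lay close together, between 1.19 and 1.26: CKAP2, TACC3, PRC1, the midzone microtubule crosslinker, TPX2, the activator of AURKA on the spindle, DLGAP5 and SPAG5, all of them proteins of spindle microtubules. PRC1 lost its call without either library labelled PRMT5 KD (FDR 0.069 and 0.1). ASPM, a spindle pole protein, had 141 and 94 CPM in control and 152 and 171 in the libraries labelled PRMT5 KD, and was not called (0.46, SE 0.20, FDR 0.103); with the length and GC correction it was 0.75 and called (FDR 0.0208), as it was without control replicate 1 (0.78, FDR 0.0296). Without control replicate 2 ASPM was 0.20 (FDR 0.41).

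The 2 transcription factors that act on G2 and M genes were both higher. MYBL2 (ENSG00000101057.16, chr20:43667019-43716495, plus strand in GENCODE 44), which encodes B-MYB, rose from 11.5 and 9.23 to 93.8 and 83.4 CPM. This 8.57-fold difference (log2 3.10, SE 0.16, FDR 0.000192) was the largest of the 55 genes, and it lay at 2.95 without control replicate 2. FOXM1 rose from 75 and 48.6 to 169 and 189 CPM (1.53, SE 0.22, FDR 0.0027). The ratio of MYBL2 to FOXM1 per length was 0.271 and 0.336 in control and 0.984 and 0.784 in the libraries labelled PRMT5 KD. MKI67, the Ki-67 protein that coats mitotic chromosomes and marks cycling cells, rose from 295 and 228 to 828 and 757 CPM (1.6, SE 0.17, FDR 0.000754). TOP2A, the topoisomerase that untangles sister chromatids, rose from 270 and 165 to 419 and 425 CPM (0.95, SE 0.24, FDR 0.0189); its call was lost without control replicate 2 (0.64, FDR 0.0612) and without either library labelled PRMT5 KD (FDR 0.0873 and 0.1).

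**Figure D3:**
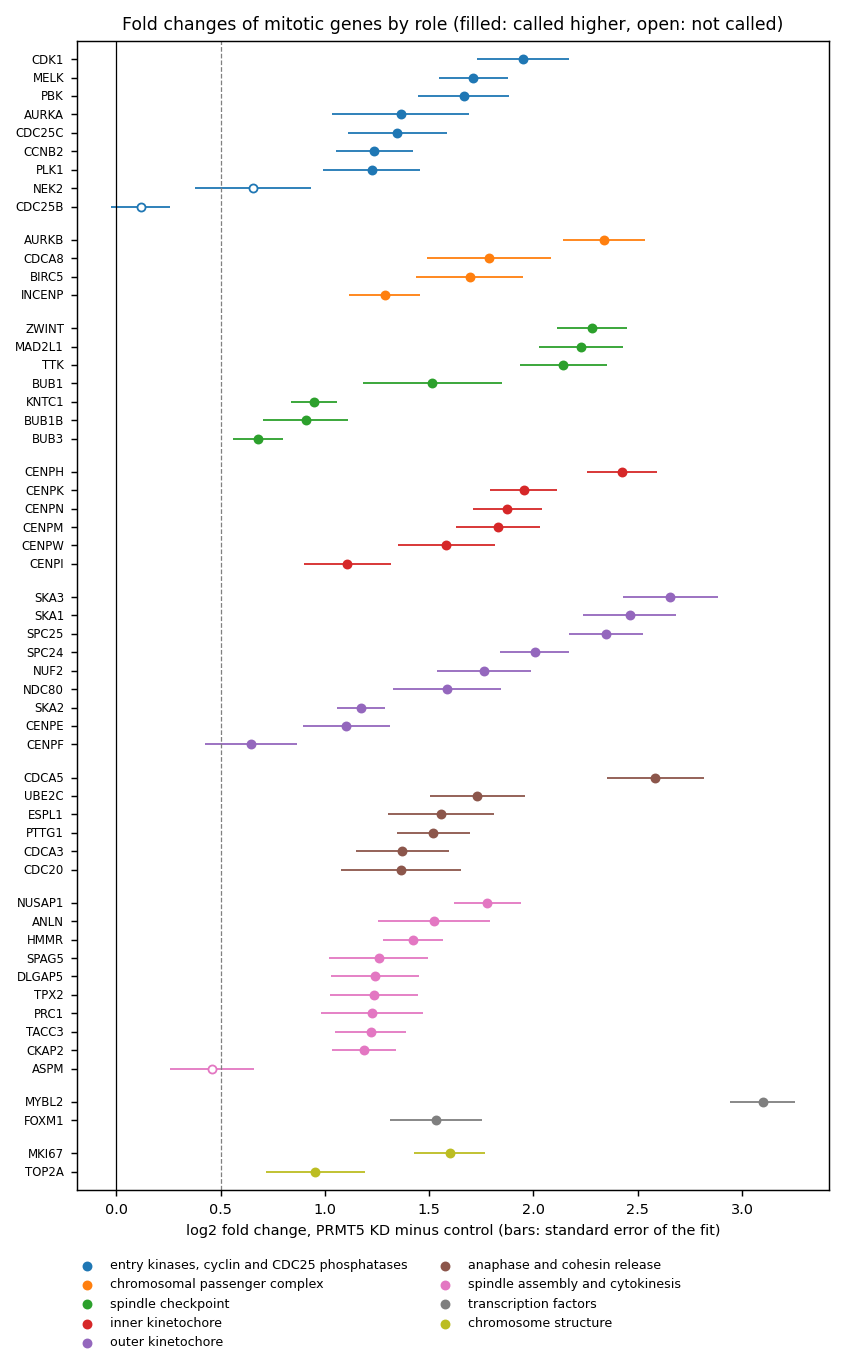
Log2 fold change (x axis, libraries labelled PRMT5 KD minus control) of each gene (y axis) by role; bars are standard errors of the edgeR fit with 2 libraries per group, filled points were called higher, open points were not called, and the dashed line marks 0.5. MYBL2 lies furthest right at 3.10, and the 3 open points are NEK2, CDC25B and ASPM.

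Per length, transcript levels in control ran from 1.38 ± 0.408 RPKM for CDCA3 (SD, n = 2), 1.48 ± 0.171 for CENPK and 1.5 ± 0.191 for SPC24 to 28.8 ± 8.65 for TPX2, 29.7 ± 10.6 for ANLN and 34.1 ± 11.6 for TOP2A. Neither the lowest 3 nor the highest 3 differed among themselves beyond this spread. RPKM divide by the merged length of all exons annotated for a gene, so an order of genes by RPKM also depends on the annotation. In the libraries labelled PRMT5 KD the highest was ANLN at 85.4 ± 12, followed by TPX2 at 67.8 ± 1.16, TOP2A at 66.2 ± 0.644 and MKI67 at 61.7 ± 3.87, and CDCA3 was again the lowest at 3.55 ± 0.216. Exon length and fold change ran in opposite directions. Spearman's rho between exon length and log2 fold change was -0.5 over the 55 genes and -0.21 over all 11881 genes, which are genes of the same 4 libraries and not independent points. With the length and GC correction, 53 of the 55 were called higher, against 24.1% of all genes, and their median was 1.42. AURKA counts were partly estimated fractions, and its pseudogene copy AURKAPS1 held 119.4 to 182.4 counts beside 1551 to 5721 for AURKA.

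The controls differed from each other in these genes. Control replicate 1 was above control replicate 2 in 54 of the 55, by a median of 0.58 on the log2 scale, against -0.01 for all genes and 0.11 for the replication genes, 35 of 44 of which lay above. The libraries labelled PRMT5 KD were closer, with replicate 2 above replicate 1 in 42 of 55 and a median of -0.12 for replicate 1 minus replicate 2. The median log2 CPM of the 55 genes was 4.85 and 4.45 in control and 6.35 and 6.44 in the libraries labelled PRMT5 KD, so the gap between groups exceeded that between controls. Without control replicate 2, the lower of the controls, the median log2 fold change of the 55 genes was 1.25. Without control replicate 1 it was 1.90. The 25 genes with a CHR core within 60 bases of a start were all called higher, as were 16 of the 19 without it, against 21.2% of all genes. Their median log2 fold changes were 1.56 (range 0.65 to 2.66) and 1.37 (0.12 to 3.10), with median gaps between controls of 0.61 and 0.47. ASPM, not called and counted among the 19, held a CHR core farther than 60 bases from its start. Split by an E2F core within 60 bases of a start, 8 of 9 genes with it and 33 of 35 without it were called, at medians of 1.87 and 1.42. These differences were not tested.

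**Figure D4:**
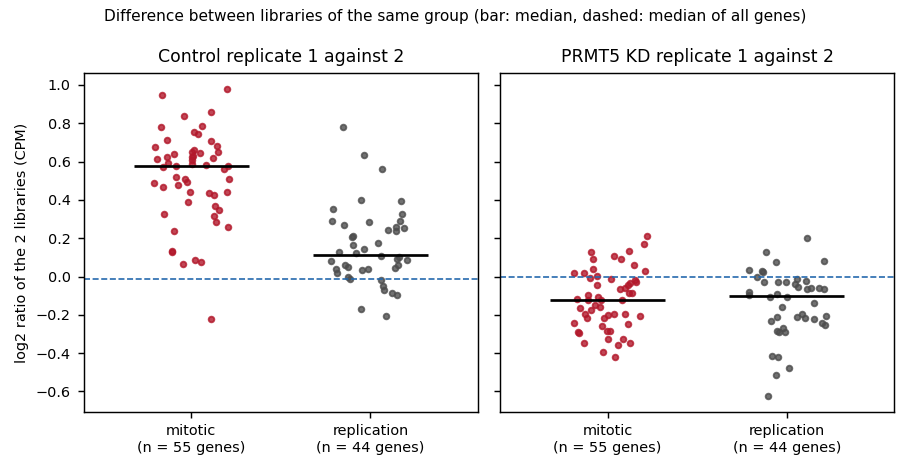
Log2 ratio of the CPM in replicate 1 to that in replicate 2 (y axis) for the mitotic genes and the replication genes (x axis, 1 point per gene), in control (left) and in the libraries labelled PRMT5 KD (right); black bars are list medians and the dashed line the median of all genes tested. The mitotic genes lie at a median of 0.58 in control and of -0.12 in the libraries labelled PRMT5 KD.

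Other genes of mitosis, 90 in 6 lists, were counted in the same fit, and 88 were tested; CENPS and CENPX were not matched. Of these, 56 were called higher, against 21.2% of all genes, and 2 lower, against 24.4% of all genes, and the median was 0.74 on the log2 scale. Kinetochore and centromere genes (18 of 21 higher, median 1.18), kinases, cyclins and their regulators (14 of 18, median 1.47) and cytokinesis and centrosome genes (10 of 13, median 1.05) were mostly higher, and 4 of 4 further checkpoint genes were, with a median of 0.75. In the lists linked to mitotic exit, 6 of 17 genes of the APC/C, its partners and its regulators were called higher (median 0.23). Of 15 genes of exit phosphatases and their regulators, 4 were called higher (median 0.34), a share near the 21.2% of all genes. The difference between lists was not tested. The largest changes were those of CDC25A, the CDC25 phosphatase of the G1/S transition, from 6.15 and 4.36 to 60 and 61.1 CPM (3.53), PKMYT1, a membrane-bound inhibitor of CDK1 (2.74), and CENPU, an inner kinetochore protein (2.51). The genes called lower were the kinases NEK6, from 42 and 48.2 to 21.6 and 19.8 CPM (-1.12, FDR 0.00101), and NEK9, its upstream activator, from 153 and 164 to 78.1 and 80.4 (-1.0, FDR 0.000795).

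**Figure D5:**
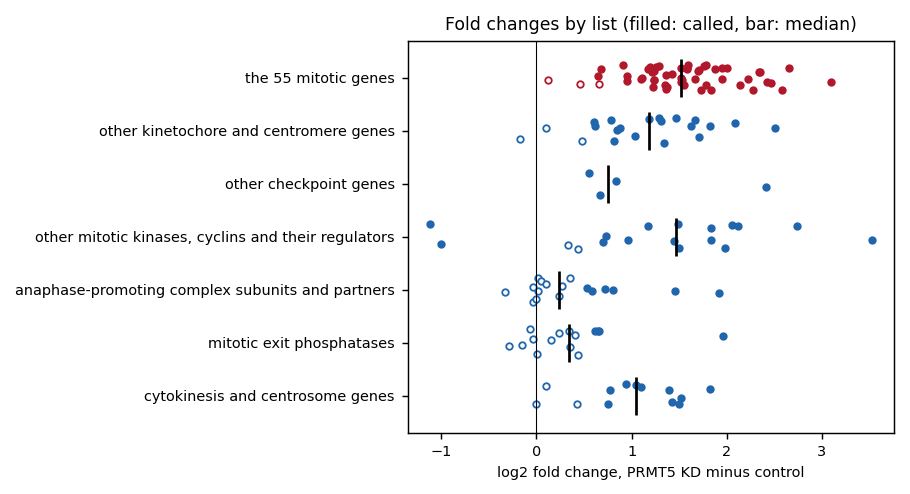
Log2 fold change (x axis, libraries labelled PRMT5 KD minus control) of single genes in the 55 mitotic genes (red) and in 6 lists of other genes of mitosis (blue, y axis); filled points were called, open points were not, and black bars are list medians. The medians of the APC/C list (0.23) and of the list of exit phosphatases and their regulators (0.34) are the lowest. NEK6 and NEK9 are the filled points left of 0.

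The replication genes gave a background from another phase of the cell cycle. Of 44, 40 were called higher, against 21.2% of all genes, and 1 lower, against 24.4% of all genes. Their median was 1.70 on the log2 scale, beside 1.52 for the mitotic genes, of which 20 lay above the replication median.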

How the data were processed

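RNA-seq of UMSCC74B cells was analysed in 4 libraries, 2 per group. The authors deposited tables of estimated counts, not normalized, and entries with the same gene name were summed here. In their processing notes the authors named FastQC, Trim Galore, STAR, Salmon, DESeq2 and GRCh38, while the study's methods name STAR and FeatureCounts, so the program that made the counts is not settled. The library kit was directional; how strand was used in counting is not given in the sources used here. Between 86% and 86.8% of values were whole numbers (within 1e-09), and values were rounded. In every library, 28 of 29744 entries had names turned into dates (0.15 to 0.161% of counts) and were dropped. Names were matched to GENCODE 44 (21672 as current symbols, 2606 as older ones, 116 ambiguous, 5261 unmatched), and 18894 were protein-coding.

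Protein-coding genes entered the test (11881) where both libraries of a group reached 0.5 RPKM; testing used edgeR 4.0.16 in R 4.3.3 with TMM factors, robust quasi-likelihood tests without a covariate and Benjamini-Hochberg adjustment over all genes. A prior count of 2 entered log2 CPM only in the length and GC correction and in the correlation between replicates of the same number. The medians of log2 CPM given for the 55 genes used none. The biological coefficient of variation was 0.142. With 2 libraries per group an exact two-sided permutation test of a single value cannot go below 0.333, so the model was used. Depth, 52185289 to 65964558 counts, gave each of the 55 genes at least 142 counts in every library. Alternatives were DESeq2 1.42.0, RLE factors, total counts of the tested genes without TMM factors, other filters, all gene names and non-robust dispersion. Further ones were a threshold of 1, exon length and GC splines with 4 degrees of freedom, a replicate block and leaving out each library. The steps were tested on simulated data. All 55 genes could be named; of other genes of mitosis, the 3 with the largest change and those called in the opposite direction. The genes and lists were chosen with earlier results of these data known.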

Additional observations from a re-analysis of the deposited data

How the results depend on the processing

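None of the 55 genes was called lower under any alternative, edgeR or DESeq2, and between 40 and 54 were called higher. All 52 remained called with DESeq2, RLE factors, total counts of the tested genes, both other filters, all gene names and the replicate block. The same held for the correction for length and GC, alone and together with the replicate block. Leaving out 1 library put the median of the 55 genes between 1.25 and 1.90. Fewest of the 55 were called higher without PRMT5 KD replicate 2, and next fewest without PRMT5 KD replicate 1. In both of these fits, calls higher over all genes exceeded those of the main fit. CDC25B, not called, ranged from -0.059 (without PRMT5 KD replicate 2) to 0.32. Over all genes called, leaving out 1 library gave 3131 to 5703, of which 1361 to 2763 were higher and 1770 to 2949 lower; the lowest values came without control replicate 2. At a threshold of 1 there were 2560 calls, 1031 higher and 1529 lower, with 34 higher among the other genes of mitosis, and PRMT5 at 0.66 was no longer called; it ranged from 0.57 to 0.78 when 1 library was left out. Replicate numbers shared no stated source (the correlation of same-numbered deviations was -0.102), and the fit with a replicate block gave 52 of the 55 genes and 5195 genes in all; a crossed pairing, chosen after seeing the data, gave 53 and 5481. With a lone library left in a group, that library was assumed to vary like the other group. The lowest count of the 55 genes in any library was 142.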
